A study of Homo sapiens with 2 samples.

Results

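The genes described here encode the cytosolic factors that start, extend and end protein synthesis. They are 57 named genes for initiation factors (eIF), elongation factors (eEF), release factors and poly(A)-binding proteins, matched by symbol. Each of the 57 symbols matched 1 gene ID among the 60683 genes of the count table. The RNA-seq libraries hold total RNA of HEK293T, an established line of human embryonic kidney origin with the SV40 large T antigen. In these cells FKBP5, which encodes a co-chaperone that binds the drug FK506, had been knocked down stably by short hairpin RNAs, and no other agent is named. The samples form 1 group of 2 FKBP5 knockdown samples, named sample 1 and sample 2, and every value below belongs to that group. Control cells were not analysed here, so levels and the difference between the 2 libraries are given, and no effect of the knockdown. Nothing in the labels says whether the samples came from separate cultures, clones or hairpins, so a difference between them may be technical. The p-values of the binomial test below hold counting error only and measure no spread between samples.

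Translation of most messenger RNAs starts at the cap. There eIF4E, held on the scaffold eIF4G together with the helicase eIF4A, recruits a small ribosomal subunit that carries eIF3 and the initiator tRNA bound to eIF2. After the start codon is found, eIF5 and eIF5B release the factors and join the large subunit. The elongation factors eEF1A and eEF2 then deliver each aminoacyl-tRNA and move the ribosome on. Release factors end the chain, and poly(A)-binding protein links the tail to eIF4G.

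Sample 1 held 9997706 counts and sample 2 held 21284648. FKBP5, the target of the hairpins, had 41 counts (3.95 CPM) in sample 1 and 77 counts (3.52 CPM) in sample 2, where CPM is the deposited count scaled to library size. All 8 marker genes listed for HEK293T had at least 1 CPM, with a summed level of 766 CPM in sample 1 and 737 CPM in sample 2. Of 5 fibroblast markers, COL1A1 and COL3A1 reached 1 CPM, and the list summed to 61.3 and 71.2 CPM. Of 4 keratinocyte and 3 hepatocyte markers, 0 reached 1 CPM. A level of 3 counts corresponds to 0.289 CPM in sample 1 and 0.137 CPM in sample 2. Intervals below are 95% intervals that cover counting error only.

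The factors were among the more abundant transcripts of these cells. At least 1 CPM was reached by 55 of the 57 genes and at least 100 CPM by 36. Their median level was 153 CPM, with 152 CPM in sample 1 and 154 CPM in sample 2. Over all 15530 genes whose mean reached 1 CPM the median was 23.5 CPM. Together the 57 genes took 2.64% of all counts in sample 1 and 2.66% in sample 2. EEF1A1 and EEF2 alone supplied 50.2% of these counts in sample 1 and 53.5% in sample 2. The exceptions below 1 CPM were EEF1G, with no count, and EIF4EBP3, with 5 and 8 counts.

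Levels of different genes are compared below as CPM per kilobase (CPM per kb), which is the CPM divided by the length of all annotated exons merged. Values are means ± SD over the 2 samples (n = 2). Reads of 10 genes are uncertain, by limits set after the values were seen. In these, under 80% of the 50-base stretches of the transcripts occur in no other gene, or over 10% of the exon bases are also annotated, on that strand, as exon of a different gene. They are EIF2S2, EIF3C, EIF3L, EIF4A1, EIF4A2, EIF4EBP3, EIF6, EEF1A1, EEF1B2 and EEF1G. Whether reads of these genes were lost to or gained from other genes was not tested.

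**Figure D1:**
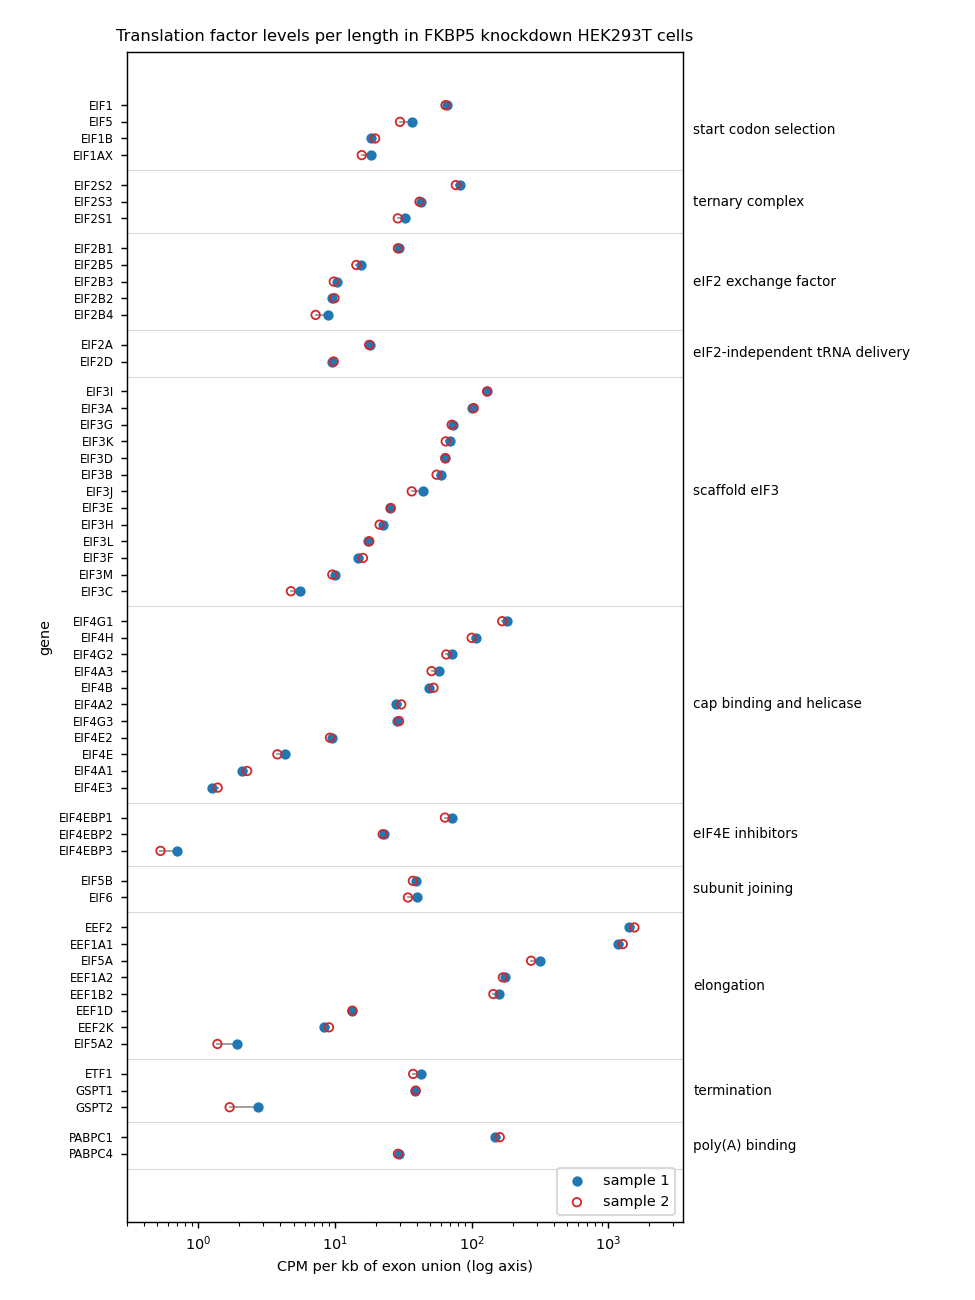
Level of each factor in CPM per kb of merged exons on a log axis, by role, with filled points for sample 1 and open points for sample 2; EEF1G, which had no count, is not drawn. EEF2 and EEF1A1 lie at 1178 CPM per kb or above in both samples, and the points of the 2 samples lie close together for most genes.

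Many messenger RNAs for translation factors and ribosomal proteins begin with a cytosine followed by an unbroken run of pyrimidines, the terminal oligopyrimidine start through which mTOR and LARP1 control their translation. The start of 46 of the 57 genes was found in the RefSeq promoter table (GRCh38.p14), some with several starts. A C at the annotated start followed by at least 4 further letters that are C or T, read on the gene's own strand, was present at any listed start in 12 of the 46 genes. Of the 35116 starts of all genes, expressed or not, 4.07% had it. That share counts single starts, while 12 of 46 counts genes at any of 64 starts, so the 2 are not directly comparable. Among genes whose mean reached 1 CPM and whose start was found, 818 had the run and 10583 had another start. At 100 CPM and above these were 215 and 1696 genes. The run is shown because the genes that were higher in sample 2 all have it, apart from PABPC1, which has no entry. It was thus chosen from calls in these 2 libraries, and the windows below cannot test a link with direction. Of the genes shown with it, EEF1B2 was lower in sample 2 and EIF3F did not pass the test. Each window below holds 10 bases before the start and 20 bases from it, with the run in capitals.
EEF1A1 (chr6:73521013-73521042, minus strand): cgtgaacgttCTTTTTCgcaacgggtttgc
EEF2 (chr19:3985444-3985473, minus strand): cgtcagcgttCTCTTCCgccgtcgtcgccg
EIF4B (chr12:53006446-53006475, plus strand): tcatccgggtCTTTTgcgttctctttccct
EIF4A2 (chr3:186783567-186783596, plus strand): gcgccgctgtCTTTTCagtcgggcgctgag
EIF3F (chr11:7987327-7987356, plus strand): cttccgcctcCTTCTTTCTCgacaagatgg
EEF1B2, second of 2 starts (chr2:206159885-206159914, plus strand): ctcttcgggtCCTTTTTCCTCTCTTCagcg
For contrast, 4 factors are shown that were lower in sample 2 and were picked from those without such a run.
EIF3J (chr15:44537137-44537166, plus strand): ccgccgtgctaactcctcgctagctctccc
EIF2S1 (chr14:67360318-67360347, plus strand): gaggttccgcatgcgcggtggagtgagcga
EIF4A3 (chr17:80147109-80147138, minus strand): cggcagcggcacagcgaggtcggcagcggc
EIF1AX (chrX:20141819-20141848, minus strand): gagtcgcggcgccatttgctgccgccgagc
The other genes with the run were EIF2A, EIF2D, EIF2S3, EIF3D, EIF3K and EIF3M. A match describes these letters and does not show that the transcripts start there in these cells. The members without an entry in the table were EEF1A2, EEF1D, EIF2S2, EIF3A, EIF3E, EIF3G, EIF3H, EIF3L, EIF4EBP1, PABPC1 and PABPC4.

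The factors that choose the start codon differed widely in level. EIF1, which keeps the scanning ribosome open and guards start codon fidelity, had 66.6 CPM per kb in sample 1 and 64.5 in sample 2. Its paralog EIF1B had 18.5 and 19.7 CPM per kb. EIF1 therefore led the pair by 3.43-fold per kb and 6.08-fold by coding length, and EIF1B held 12.8% of their counts in sample 1 (Wilson interval 11.6 to 14.1%). Its share was 13.9% in sample 2, where the interval was 13.03 to 14.8%. EIF1AX, the X-linked gene for eIF1A, which works with eIF1 on the small subunit, had 18.5 and 15.7 CPM per kb. EIF5, the GTPase-activating protein of eIF2, had 36.9 CPM per kb in sample 1 and 29.96 in sample 2. Per kb of merged exons EIF1B and EIF1AX were level in sample 1 and apart in sample 2, but their order depends on the length used. By longest transcript EIF1B was higher, with a mean of 36.2 against 17.1 CPM per kb. By coding length EIF1AX was higher, with 175 against 108.

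The subunits of eIF2, the GTPase that carries the initiator tRNA, were within 2.58-fold of each other per kb. EIF2S2, the beta subunit, had 82.3 CPM per kb in sample 1 and 76.8 in sample 2. EIF2S3, the gamma subunit that binds GTP and the tRNA, had 42.4 and 41.7 CPM per kb. EIF2S1, the alpha subunit whose phosphorylation shuts initiation down in the integrated stress response, had 32.9 and 28.9 CPM per kb. The order was the same in both samples. EIF2S2 is one of the uncertain genes, and without it EIF2S3 exceeded EIF2S1 by 1.36-fold. EIF2S3 itself lies just above the limit, with 80.8% of its 50-base stretches in no other gene, against 77.4% for EIF2S2. By coding length EIF2S3 was the lowest, so the order of these 2 subunits depends on the length used.

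The exchange factor eIF2B, which reloads eIF2 with GTP, had a median of 10.1 CPM per kb over its 5 subunits, against 42.0 for the 3 eIF2 subunits. EIF2B1, the alpha subunit, led with 29.5 CPM per kb in sample 1 and 28.9 in sample 2, level with EIF2S1 in sample 2. The catalytic subunit EIF2B5 had 15.5 and 14.3 CPM per kb. EIF2B3, EIF2B2 and EIF2B4, the gamma, beta and delta subunits, had 10.5, 9.59 and 8.97 CPM per kb in sample 1 and 9.82, 9.93 and 7.23 in sample 2. The order of EIF2B3 and EIF2B2 therefore differed between the samples. The highest subunit exceeded the lowest by 3.61-fold, and no eIF2B gene is among those with uncertain reads. EIF2A and EIF2D, which can bring initiator tRNA to the ribosome without eIF2, had 17.9 ± 0.0929 and 9.67 ± 0.214 CPM per kb, though by coding length EIF2A was at 0.947 of EIF2D.

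The 13 genes of the scaffold complex eIF3 had a median of 40.4 CPM per kb, from 5.15 for EIF3C to 130 for EIF3I, a 25.2-fold range. EIF3I, a WD-repeat subunit, had 129 CPM per kb in sample 1 and 130 in sample 2. EIF3A, the large core subunit, had 100.6 and 103.9 CPM per kb. EIF3G, EIF3K, EIF3D and EIF3B followed with 73.5, 69.9, 63.6 and 59.9 CPM per kb in sample 1 and 71.6, 64.8, 64.3 and 55.5 in sample 2. EIF3J, a loosely bound subunit, had 44.4 and 36.5 CPM per kb. Below the median lay EIF3E, EIF3H, EIF3L, EIF3F and EIF3M, with 25.3, 22.5, 17.6, 14.8 and 10.0039 CPM per kb in sample 1 and 25.6, 21.3, 17.9, 16.0451 and 9.58 in sample 2. EIF3K and EIF3D lay within their spread of each other, and the remaining neighbours among the 6 highest were further apart than their SD. The order depends on the length used, however. EIF3G was highest by longest transcript and EIF3A without length scaling. By coding length EIF3K led with 288 CPM per kb against 229 for EIF3I, and EIF3F rose from 15.4 to 136.

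EIF3C, a core subunit of eIF3, had 401 counts in sample 1 and 728 in sample 2, or 38.6 and 33.3 CPM. It lies on chromosome 16 (GENCODE 29, GRCh38), and 42.3% of its 50-base stretches also occur in transcripts of EIF3CL, a near-identical copy. EIF3CL itself had 63 and 134 counts. Without EIF3C and EIF3L, whose reads are uncertain, the range of the other 11 subunits was 13.2-fold, from EIF3M to EIF3I. Scaled by coding length instead, these 11 subunits spanned 4.44-fold, against 4.54-fold for the 5 subunits of eIF2B.

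Among the cap-binding factors the scaffold had the highest level. EIF4G1, the main scaffold, had 15642 counts in sample 1 and 30263 in sample 2, or 183 and 168 CPM per kb. EIF4G2, also called DAP5, which lacks the part that binds eIF4E, had 71.9 and 65.4 CPM per kb. EIF4G3 had 28.4 and 29.5 CPM per kb. EIF4G1 took 64.5% of the length-scaled level of these 3 genes in sample 1 and 63.9% in sample 2. The order EIF4G1, EIF4G2, EIF4G3 was the same in both samples, and the gaps exceeded the spread.

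EIF4E, which binds the cap, had 635 counts in sample 1 and 1167 in sample 2, or 61.2 and 53.4 CPM. Per kb this was 4.35 and 3.80, and EIF4G1 exceeded it 43.1 ± 1.57-fold. The ratio was 3.90 by coding length, because the annotated exons of EIF4E span 14067 bases and its coding sequence 744. EIF4E2, a cap-binding homologue that represses translation, had 9.53 and 9.21 CPM per kb. EIF4E3 was the lowest with 1.26 and 1.39 CPM per kb. By counts, EIF4E2 held 47.8% of the set in sample 1 (Wilson interval 45.2 to 50.3%) and EIF4E 42.7% (40.2 to 45.3%). In sample 2 these shares were 49.1% (47.3 to 50.96%) and 39.7% (37.97 to 41.5%).

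Of the eIF4E inhibitors, which mTOR inactivates by phosphorylation, 2 were well expressed. EIF4EBP1 had 799 counts in sample 1 and 1498 in sample 2, or 77.01 and 68.5 CPM. EIF4EBP2 had 1714 and 3552 counts, or 165 and 163 CPM. The order of the pair turns on length: EIF4EBP1 has 1073 bases of exon and EIF4EBP2 7257. Per kb EIF4EBP1 led 3.004-fold with 67.8 ± 5.58 against 22.6 ± 0.260 CPM per kb. By coding length EIF4EBP1 held only 31.0% of the set. EIF4EBP3 had 5 and 8 counts, and 73.4% of its exon bases lie in exons of the readthrough gene ANKHD1-EIF4EBP3, which had 15 and 12 counts.

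The helicase genes showed an order that rests on uncertain reads. EIF4A3, the helicase of the exon junction complex rather than of initiation, had 57.9 CPM per kb in sample 1 and 51.0 in sample 2. EIF4A2, an initiation helicase, had 28.1 and 30.6 CPM per kb. EIF4A1, its close paralog, had 116 and 265 counts, or 2.10 and 2.28 CPM per kb, which was 24.8-fold below EIF4A3. EIF4A1 lies on chromosome 17 from 7572706 to 7579005 (GENCODE 29, GRCh38), and 48.6% of its exon bases are shared with same-strand exons of other genes, among them SENP3-EIF4A1 (9 and 23 counts). Its processed pseudogene EIF4A1P10 had 57 and 160 counts. The part of these overlaps in the low EIF4A1 count was not tested. The helicase cofactors EIF4H and EIF4B had 107 and 48.8 CPM per kb in sample 1 and 100.2 and 52.7 in sample 2.

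**Figure D2:**
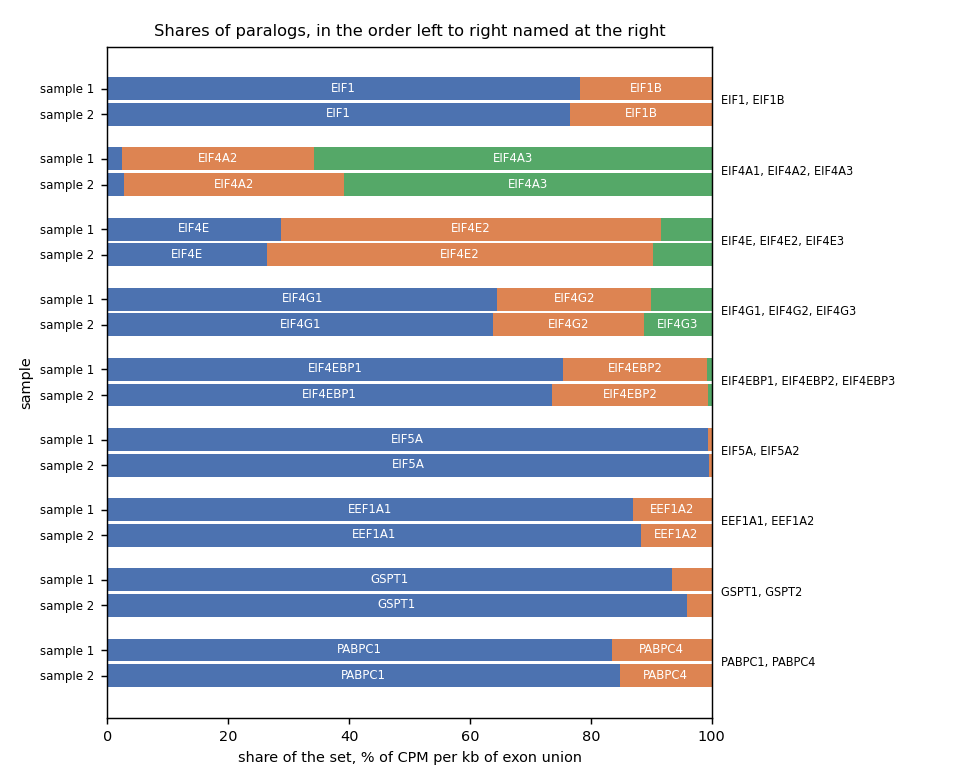
Share of each paralog in its set, in percent of the summed CPM per kb, with 1 bar for each sample. The leading paralog is the same in both samples in all 9 sets, and EIF5A2, EIF4EBP3 and EIF4A1 have the smallest shares. The share of EIF4A1 rests on uncertain reads.

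Factors of subunit joining lay close together. EIF5B, the GTPase that joins the subunits, had 38.2 ± 1.40 CPM per kb. EIF6, which keeps the large subunit from joining too early, had 36.95 ± 3.82 CPM per kb, within the spread of EIF5B. EIF6 is one of the uncertain genes, sharing 17.4% of its exon bases with a same-strand neighbour, AL121753.1, which had 1 and 3 counts.

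The elongation factor genes EEF2 and EEF1A1 had the highest levels per kb of all the factors, while other elongation genes lay far lower. EEF2, the translocase, had 59609 counts in sample 1 and 136967 in sample 2, or 1427 and 1556 CPM per kb. EEF1A1, which delivers aminoacyl-tRNA, had 72681 and 166380 counts, or 1178 and 1280 CPM per kb. EEF1A1 was thus at 0.824 ± 0.00218 of EEF2 per kb, but at 2.26 times EEF2 by coding length, so their order depends on the length used. Among 50-base stretches, 79.6% of those in EEF1A1 and 100% of those in EEF2 were found in that gene alone. EEF2K, the kinase that inactivates eEF2, had 8.30 and 9.05 CPM per kb, and EEF2 exceeded it 172-fold per kb and 72.9-fold by coding length.

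EEF1A2, the paralog of EEF1A1 best known from neurons and muscle, was among the highest factors in these kidney-derived cells. It had 9016 counts in sample 1 and 18204 in sample 2, or 177 and 170 CPM per kb. Among the 57 genes it ranked 5 per kb, next to EIF4G1 and within the spread of that gene. EEF1A2 held 11.04% of the eEF1A counts in sample 1, with a Wilson interval of 10.8 to 11.3%. The share was 9.86% in sample 2, with an interval of 9.73 to 9.999%. Its transcripts are 98.9% unique by 50-base stretch.

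EIF5A, the hypusine-bearing factor that helps ribosomes through difficult peptide bonds, ranked 3 with 315 CPM per kb in sample 1 and 273 in sample 2. Its paralog EIF5A2 had 112 and 169 counts, or 1.93 and 1.38 CPM per kb. EIF5A exceeded EIF5A2 180 ± 24.3-fold per kb and 74.6-fold by coding length. EIF5A2 held 1.20% of their counts in sample 1 (Wilson interval 1.002 to 1.45%), against 0.996% in sample 2 (0.858 to 1.16%).

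The exchange factor of eEF1A, eEF1B, could be described for 2 of its 3 subunit genes. EEF1B2, the alpha subunit with exchange activity, had 159 CPM per kb in sample 1 and 144 in sample 2. EEF1D, the delta subunit, had 13.4 CPM per kb in both. EEF1B2 exceeded EEF1D 11.3-fold per kb, and 7.16-fold by coding length. EEF1G, the gamma subunit, had no count in either sample, where 3 counts would be 0.289 CPM in sample 1 and 0.137 CPM in sample 2. EEF1G lies on chromosome 11, and 99.9% of its exon bases are also exon of a gene on that strand, AP002990.1, which had 43 and 88 counts. Only 4.19% of the 50-base stretches of EEF1G are its own, so the count of 0 sets no upper level for the gene. Whether its reads were set aside for that reason was not tested.

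The release factors ETF1 and GSPT1 had like levels. ETF1, which reads stop codons, had 43.0 CPM per kb in sample 1 and 37.4 in sample 2. GSPT1, its GTPase partner eRF3a, had 38.9 and 39.0 CPM per kb, and the GSPT1 to ETF1 ratio was 0.974 ± 0.0989. GSPT2, an X-linked gene for eRF3b with a retrogene structure, had 79 and 104 counts, or 2.72 and 1.70 CPM per kb. GSPT2 held 2.38% of the eRF3 counts in sample 1 (Wilson interval 1.92 to 2.96%), against 1.497% in sample 2 (1.24 to 1.81%).

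Of the poly(A)-binding proteins, PABPC1 had 149 CPM per kb in sample 1 and 161 in sample 2. PABPC4, an inducible cytosolic paralog, had 29.6 and 28.9 CPM per kb. PABPC1 led 5.31-fold and was at 0.889 ± 0.1004 of the level of its partner EIF4G1 per kb, but at 1.29 times EIF4G1 by coding length. Per kb the difference between PABPC1 and EIF4G1 was larger in sample 1 than in sample 2.

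The 2 libraries were then compared gene by gene with a 2-sided exact binomial test of the counts, adjusted by Benjamini-Hochberg over the 15530 genes. It compares libraries and not conditions, and holds counting error only. Of the 55 factors tested, 21 passed at an adjusted p under 0.05, or 38.2%, while 8.71% of all genes did. The test passes more easily for abundant genes. Among genes of at least 100 CPM, 17 of 36 factors passed (47.2%), against 26.4% of all such genes. These 36 factors had a median of 257 CPM and all such genes 163 CPM, so abundance was still not matched. Of the 21, 5 were higher in sample 2 and 16 were lower, where all genes had 4.29% higher and 4.42% lower. At 100 CPM and above the factors had 5 higher and 12 lower, and all genes 229 higher and 374 lower, so abundant genes in general leaned to lower. With DESeq2 size factors the split of the factors was 7 higher and 13 lower, and with column totals 4 higher and 21 lower.

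All of these differences were small. The fold in CPM + 1 ranged from 1.04 for EEF1A2 to 1.496 for GSPT2 among the 21. On that scale 0 factors passed both the binomial test and a 1.5-fold limit, where 0.657% of all genes did. On plain CPM 1 called factor, GSPT2, passed that limit with 1.60-fold. With no limit on fold, 31 factors had an unadjusted binomial p under 0.05 (56.4%), against 21.2% of all genes. By edgeR's exact test, with the dispersion estimated from both libraries as 1 group, 0 of 55 factors passed (lowest adjusted p = 0.625), against 0.0773% of all genes. At an unadjusted edgeR p under 0.05 there were 5 factors (9.09%), against 5.65% of all genes. The median log2 ratio of CPM + 1, sample 2 over sample 1, was -0.05 over the 55 factors, with 20 above 0. Over all tested genes it was 0.01, and over those of at least 100 CPM it was -0.02.

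The factors higher in sample 2 were EEF1A1, EEF2, PABPC1, EIF4B and EIF4A2. EEF1A1 had 7005 CPM in sample 1 and 7613 in sample 2, a log2 ratio of 0.12 (adjusted p = 8.59e-76). EEF2 had 5745 and 6267 CPM, a log2 ratio of 0.13 (adjusted p = 6.32e-68). These 2 genes have the highest counts and so the smallest counting error. PABPC1 had 710 and 765 CPM (adjusted p = 6.74e-06), EIF4B 299.9 and 324 CPM (adjusted p = 0.00834), and EIF4A2 172 and 188 CPM (adjusted p = 0.0311). EIF4A2 no longer passed with column totals or TMM factors as the scaling, or without the filter on low counts.

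Factors lower in sample 2 included genes of start codon selection, eIF2, eIF2B, eIF3, cap binding, subunit joining, elongation and termination. EIF5 had 314 CPM in sample 1 and 255 in sample 2 (log2 ratio -0.30, adjusted p = 4.52e-18), and EIF3J 142 and 117 CPM (-0.28, adjusted p = 5.25e-07). EIF2B4, the delta subunit of eIF2B, had 47.9 and 38.6 CPM (-0.30, adjusted p = 0.00467). The largest ratio was that of GSPT2, with 7.61 and 4.76 CPM (-0.58, adjusted p = 0.0327) from 79 and 104 counts. GSPT2 did not pass without the filter on low counts.

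Among abundant factors, EIF4G1 had 1508 and 1385 CPM (-0.12, adjusted p = 3.82e-15), EIF5A 886 and 768 CPM (-0.20, adjusted p = 1.37e-24) and EIF4G2 622 and 566 CPM (-0.14, adjusted p = 9.73e-08). EIF4A3 had 287 and 253 CPM, ETF1 198 and 172, EIF3B 539 and 499.6, EIF2S1 186 and 163, and EEF1B2 304 and 277 CPM. EIF1AX had 81.8 and 69.6 CPM, EEF1A2 869 and 833, EIF4H 342 and 320, and EIF6 64.7 and 55.9 CPM. For these 9 genes the log2 ratios lay between -0.23 for EIF1AX and -0.06 for EEF1A2. EEF1A2, EIF4H and EIF6 no longer passed with DESeq2 size factors, nor EIF6 without the filter on low counts. Paralogs differed in direction: EEF1A1 was higher in sample 2 while EEF1A2 was lower, except with DESeq2 size factors. EIF4A2 was higher while EIF4A3 was lower, except that EIF4A2 did not pass with column totals, with TMM factors or without the filter on low counts.

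**Figure D3:**
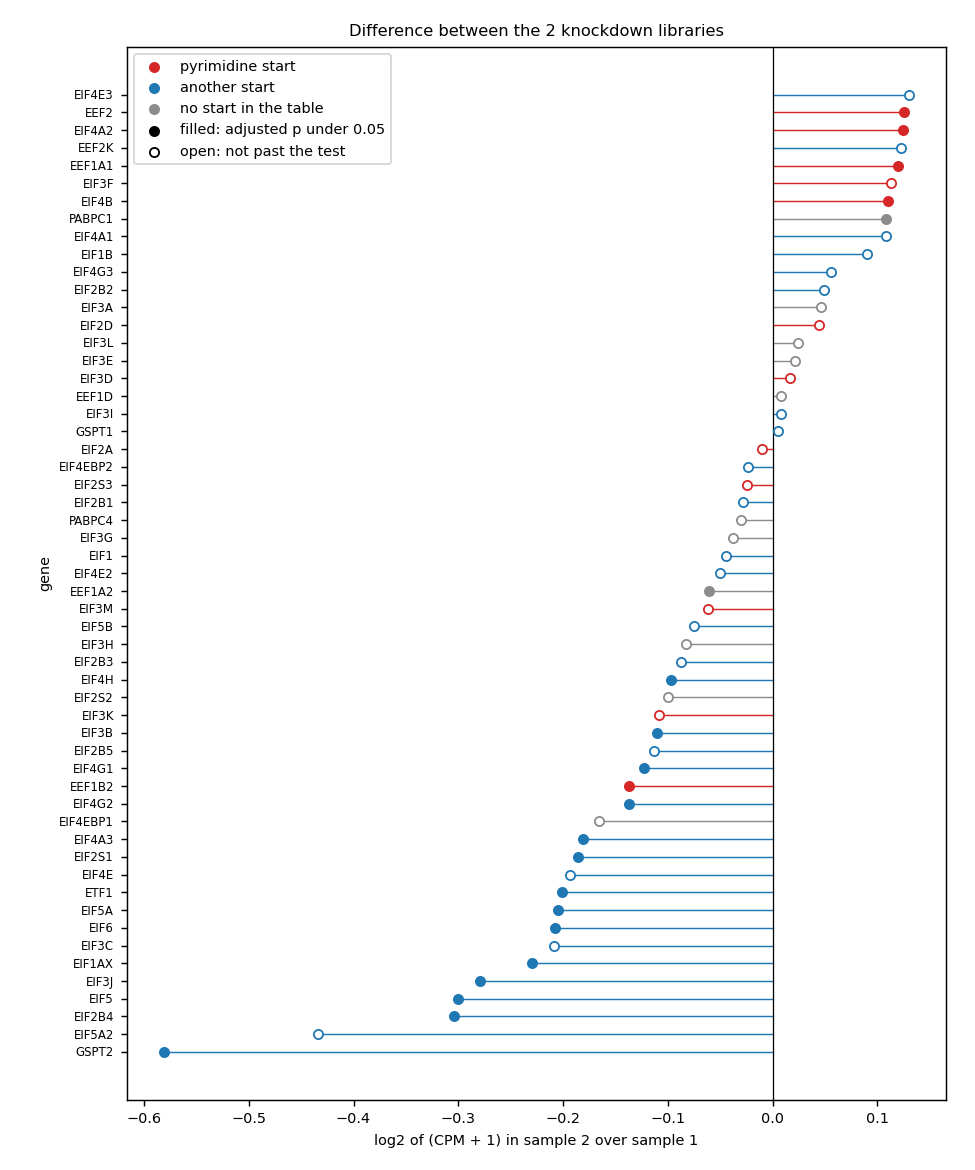
Log2 ratio of CPM + 1, sample 2 over sample 1, for the 55 factors tested, sorted, with filled points for an adjusted p under 0.05 in the exact binomial test and colours for the annotated start. All points lie between -0.58 (GSPT2) and 0.13 (EIF4E3), and 4 of the 5 filled points above 0 have a pyrimidine start. The start was chosen for display because of these calls.

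The annotated start and the direction of the difference are set side by side here as a description. The run was chosen because the higher factors with an entry have it. The split of higher calls between the kinds of start was therefore fixed in advance and tests nothing. The medians of the factors below are affected by the same choice. Of the 12 factors with the pyrimidine run shown above, 4 were higher in sample 2 (EEF1A1, EEF2, EIF4B and EIF4A2) and 1 was lower (EEF1B2). This was 41.7% called, with a median log2 ratio of 0.03. Of the 32 tested factors with another start, 0 were higher and 14 lower (43.8% called), with a median of -0.11. Over all tested genes, 41 of 818 with the run were higher and 59 lower (12.2% called). Of 10583 with another start, 447 were higher and 514 lower (9.08% called). At 100 CPM and above, 18 of 215 genes with the run were higher and 44 lower, and 166 of 1696 with another start were higher and 270 lower. Among all abundant genes with the run, lower calls therefore outnumbered higher ones. The median log2 ratio over all tested genes was 0.00472 with the run and 0.00553 with another start. The shares above 0 were 51.2% and 51.6%. At 100 CPM and above the medians were -0.03 and -0.02.

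A list of 10 factors long known to have a terminal oligopyrimidine start was also followed. These are EEF1A1, EEF1B2, EEF1D, EEF1G, EEF2, EIF3E, EIF3F, EIF3H, EIF4B and PABPC1. Among the RefSeq starts, 5 of them have the run, EEF1G has a start without it, and EEF1D, EIF3E, EIF3H and PABPC1 have no entry. Of the 9 tested, all of at least 100 CPM, 4 were higher in sample 2 and EEF1B2 was lower (55.6% called), and the median log2 ratio was 0.11. Among all genes of at least 100 CPM 26.4% were called. EEF1A1, EEF2, EIF4B and EEF1B2 were already counted above with the run, so the list adds little that is separate. Over the other 46 factors tested, 1 was higher and 15 lower (34.8% called), with a median of -0.07. The share was 8.71% over all genes and 26.4% over those of at least 100 CPM. The factors outside the list had a median level of 146 CPM, against 23.5 CPM for all tested genes. The 8.71% is therefore not a like comparison, because the test passes more easily for abundant genes. EIF3F had 140 CPM in sample 1 and 151 in sample 2 and did not pass (adjusted p = 0.0997).

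Regulators and partners of the factors had a median of 41.3 CPM over 66 genes. Of the 62 tested, 9 passed the binomial test (14.5%), 2 higher and 7 lower in sample 2, against 8.71% of all genes. The single lists that follow hold at most 2 calls each, too few to read their shares against that of all genes. Of 9 eIF2 kinase and phosphatase genes all had at least 1 CPM, and 1 was higher in sample 2 and 1 lower (22.2% called). EIF2AK1, the heme-regulated kinase, was highest with 266 CPM in sample 1 and 273 in sample 2, followed by the phosphatase gene PPP1CC with 250 and 242 CPM. EIF2AK3, the kinase PERK of the endoplasmic reticulum, had 18.4 and 24.4 CPM (adjusted p = 0.0132 by the binomial test). PPP1CA, another catalytic phosphatase subunit, had 113 and 98.8 CPM and was lower (adjusted p = 0.00726).

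Of 10 genes that control cap binding, 1 passed the test (10%, against 8.71% of all genes). LARP1, which binds the cap and pyrimidine run of such starts, had 425 CPM in sample 1 and 415 in sample 2. MLST8, a subunit of the mTOR complexes, had 327 and 294 CPM and was lower in sample 2 (adjusted p = 4.93e-05). Of 7 genes for scanning, recycling and rescue, 1 was higher and 1 lower (28.6% called). ABCE1, which splits ribosomes after termination, had 107 and 133 CPM (log2 ratio 0.32, adjusted p = 3.04e-08). The helicase gene DDX3X had 241 and 223 CPM (adjusted p = 0.0251).

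Enzymes that modify the factors had a median of 23.9 CPM. Of the 15, 2 passed (13.3%, against 8.71% of all genes), both lower in sample 2. METTL13, a methyltransferase of eEF1A, had 86.0 CPM in sample 1 and 72.8 in sample 2, for an adjusted p of 0.00269 in the binomial test. DOHH, which completes hypusine on eIF5A, had 77.97 and 66.5 CPM (adjusted p = 0.00803). None of the 5 tested genes among the poly(A)-binding partners and paralogs passed, led by PAIP1 with 147 and 136 CPM and PABPN1 with 140 and 133 CPM. Of the 6 tested genes among other copies and partners, 1 passed (16.7%). EEFSEC, the selenocysteine elongation factor, was lower in sample 2 with 48.8 and 39.9 CPM (adjusted p = 0.0089). SECISBP2, which binds the selenocysteine element, was the highest of these other copies and partners with 68.9 and 70.4 CPM.

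The factors of mitochondrial translation, a separate system encoded in the nucleus, had a median of 30.4 CPM over 11 genes. TUFM, the mitochondrial counterpart of eEF1A, had 430 CPM in sample 1 and 423 in sample 2. Its mean was 188 CPM per kb. MTIF2, the mitochondrial initiation factor 2, had 75.3 and 82.8 CPM. Of the 10 tested, 1 passed the binomial test (10%, against 8.71% of all genes). This was GFM1, a mitochondrial elongation factor G, lower in sample 2 with 38.6 and 31.5 CPM (adjusted p = 0.0239).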

How the data were processed

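The data are 1 table of counts and 1 file of CPM per sample, from directional total RNA libraries, per the labels' protocols. The deposited counts are whole reads per Ensembl gene with no normalization. The deposited CPM are counts scaled to library size by the authors, and 100% of values came out as whole reads within 1e-06. Per the submitters' processing notes, STAR 2.7.7a and edgeR were used with GRCh38. Which program counted the reads, and with what strand setting, rule for shared reads and annotation, were not given in the sources used here.

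Lengths, positions, overlaps and shared 50-base stretches came from GENCODE 29. The binomial test doubled the smaller tail, used the read share set by the deposited library sizes, and was run on genes whose mean reached 1 CPM. Log2 ratios add 1 to the CPM, which understates low genes. Tools were Python 3.11.15, scipy 1.17.1, statsmodels 0.14.6, R 4.3.3, edgeR 4.0.16 and DESeq2 1.42.0. The test was run on simulated counts that held counting error only. That run cannot show how the test behaves where libraries also differ by more than counting error. Alternatives covered scaling, filter, length and each sample alone. The members and lists were chosen with earlier results of these data known. By rule, every member is accounted for, and paralogs, subunits, members called between libraries, and the 2 highest and any called genes of each pathway list are named. Limits on uncertain reads were set after the values were seen. No molecular identifiers are stated. A further marker list is not reported here.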

Additional observations from a re-analysis of the deposited data

How the results depend on the processing

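Depth limits the low genes: EIF4EBP3 had 5 and 8 counts. With 21 factors called between the libraries, the count was 25 with column totals, 23 with TMM factors, 20 with DESeq2 size factors, 18 without a filter and 22 at 5 CPM or more, and 17 factors had the same call under all 3 other scalings. It was 0 by edgeR's exact test and 0 with a 1.5-fold limit on CPM + 1 added (1, GSPT2, on plain CPM). The edgeR test includes the spread between the libraries, which the binomial test leaves out. That spread was estimated from the same 2 libraries that were then compared, so a low number of calls was largely built in. The factors' median log2 ratio of -0.0498 was -0.065, -0.061 and -0.034 under those scalings, and that of all genes was -0.0027 with column totals. Without the factors of uncertain reads, a setting added after seeing the data, 17 were called. The median level of the factors, 29.4 CPM per kb, was 44.8 per kb of the longest transcript and 136 per kb of coding sequence, and 29.5 to 29.6 with either sample alone. EIF4EBP1 led its set at 74.5% per kb but held 30.7% of counts and 31.0% by coding length; the other 8 sets kept their leader. Between the highest and lowest subunit of eIF2 the ratio of 2.58 was 1.45 without length scaling, 2.05 by longest transcript, 2.05 by coding length and 1.36 without EIF2S2. For eIF2B it was 4.24 by longest transcript and 4.54 by coding length. For eIF3 it was 20.2 without length scaling, 18.3 by longest transcript, 21.9 by coding length and 13.2 without EIF3C and EIF3L. For eEF1B it was 2.31, 7.82 and 7.16 under those lengths. With either sample alone the ratios were 2.51 to 2.66 for eIF2, 3.29 to 4.001 for eIF2B, 23.4 to 27.2 for eIF3 and 10.8 to 11.9 for eEF1B. No paired analysis was possible because the samples form 1 group.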

Other observations

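Pseudogenes named after the factors had a higher summed level in sample 2. The table holds 151 such pseudogenes, with 1195 counts in sample 1 and 3632 in sample 2, or a summed 115 and 166 CPM. Of the 17 with a mean of at least 1 CPM, 15 had a log2 ratio above 0, with a median of 0.40. EEF1A1P12 reached that mean only through sample 2, with 0.578 CPM in sample 1 and 1.51 in sample 2. In the exact binomial test 3 of the 17 passed, all higher in sample 2, while 8.71% of all tested genes passed in either direction. These were EEF1A1P5 with 56.1 CPM in sample 1 and 85.1 in sample 2, EEF1A1P6 with 11.3 and 17.0 CPM, and EEF1A1P13 with 3.95 and 7.64 CPM. All 3 are copies of 1 parent gene, EEF1A1. The summed level of the 151 therefore rests mostly on that parent, and above all on EEF1A1P5. EEF1A1 itself differed by a log2 ratio of 0.12. The comparison was made after the values were seen.

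Processed pseudogenes of all genes differed in the same direction by less. Of 298 with at least 1 CPM, 74.5% had a log2 ratio above 0, with a median of 0.15, and 19 were higher and 1 lower in sample 2. The direction was not particular to processed copies. Of 290 unprocessed pseudogenes tested, 64.8% were above 0, with a median of 0.12, and 14 were higher and 1 lower. Protein-coding genes had 51.9% above 0 and a median of 0.00679. At 1 to 10 CPM the medians were 0.14 over 271 processed pseudogenes and 0.07 over 3245 protein-coding genes. The cause was not tested.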
